A study of Mus musculus with 6 samples.

Results

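Among the 42006 mouse probes of a 2-colour oligonucleotide array, 99 gave a detectable oocyte signal in both pools titled oocyte and in none of the 4 pools titled SN or NSN. They made up 0.236 percent of all probes and 0.468 percent of the 21147 probes detected on both oocyte arrays. A probe was taken as detected on an array where the scanner software marked its Cy3 spot as well above background; Cy3 was the dye of the oocyte RNA, and for a probe spotted more than once a single marked spot was enough. The members were therefore chosen by their Cy3 signal, and every Cy3 value of theirs, the gap between oocyte and the other pools and the residual signal in SN and NSN alike, is given as a description that supports nothing by test. The opposite set was larger: 2679 probes were detected on all 4 SN and NSN arrays and on neither oocyte array. Pool size and array brightness differed between the groups, as given below, so nothing is read from the sizes of these sets.

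The study measured 3 groups of 2 pools of mouse oocytes. Each oocyte pool held 10 oocytes, each SN pool held 50, and the NSN pools held 41 in replicate 1 and 44 in replicate 2. SN stands for surrounded nucleolus and NSN for not surrounded nucleolus, classes of antral oocytes that were told apart by staining chromatin with Hoechst 33342. The labels' protocol names wild type mice and Mater tm/tm mice aged 39 weeks, the latter carrying a mutated maternal gene, without assigning either genotype to a pool, and it gives no other stage for the pools titled oocyte. The sample characteristics name embryonic stem cells for all 6 samples, against the titles, and no marker gene could be checked because the files pair no probe with a gene. On every array Cy5 carried the same reference RNA, made from cultured mouse cell lines and embryonic stem cells, and the dyes were not swapped. The oocyte arrays lay on slides 1 and 2 and all SN and NSN arrays on slide 3. Each SN and NSN array had 2 scans, of which the brighter was used, and each oocyte array had 1. Group, slide, pool size and choice of scan therefore cannot be told apart wherever oocyte is set against SN or NSN, in Cy3 as in Cy5. The labels leave out which animals each pool was drawn from. In Cy3 a p-value covers pool-to-pool spread only, and that spread may be technical. In Cy5 a p-value covers the spread between arrays that carried the same reference RNA, and no spread between oocyte pools.

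A growing oocyte makes and stores RNA that it later uses when its own transcription stops, and the change from the NSN to the SN arrangement of chromatin is known to go with that stop. A 60-base probe reports the RNA that is complementary to it after amplification, and a signal near background does not tell a low amount of RNA from none. In pools, fewer oocytes that hold an RNA and less of that RNA in each oocyte cannot be told apart.

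The 12 members with the highest mean Cy3 signal on the oocyte arrays are shown first, from the brightest downward, since their signals lie farthest from the detection limits of the oocyte arrays on average. Capitals mark the hexamers AATAAA and ATTAAA, the usual poly(A) signals, or their reverse complements TTTATT and TTTAAT. Each sequence is the probe as deposited, from 5′ to 3′.
Z00000841-1: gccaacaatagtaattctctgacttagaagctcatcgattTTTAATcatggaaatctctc
Z00062346-1: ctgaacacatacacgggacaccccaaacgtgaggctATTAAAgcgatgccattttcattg
Z00035196-1: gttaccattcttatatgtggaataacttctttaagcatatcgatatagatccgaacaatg
Z00031156-1: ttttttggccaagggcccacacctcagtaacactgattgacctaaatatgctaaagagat
Z00051957-1: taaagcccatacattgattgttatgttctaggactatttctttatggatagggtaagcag
Z00070572-1: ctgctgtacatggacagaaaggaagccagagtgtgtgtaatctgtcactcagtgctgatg
Z00028990-1: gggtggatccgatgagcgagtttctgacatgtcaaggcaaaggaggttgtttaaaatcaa
Z00035377-1: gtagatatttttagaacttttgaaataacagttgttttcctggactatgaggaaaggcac
Z00059038-1: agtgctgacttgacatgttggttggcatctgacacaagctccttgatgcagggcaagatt
Z00016072-1: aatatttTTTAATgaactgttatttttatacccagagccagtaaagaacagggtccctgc
Z00035831-1: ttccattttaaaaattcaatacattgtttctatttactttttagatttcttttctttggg
Z00065725-1: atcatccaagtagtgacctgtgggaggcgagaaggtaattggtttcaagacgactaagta

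Of these 12 probes, 3 hold one of the hexamers. Z00000841-1 and Z00016072-1 hold TTTAAT, and Z00062346-1 holds ATTAAA.

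The members were dim. Cy3 is given below as the software's background-subtracted intensity, in arbitrary scanner units on a linear scale. Over the 99 members it ranged from 9.46 to 126 with a median of 20.5 on the array of oocyte replicate 1, and from 8.28 to 96.7 with a median of 13.5 on that of replicate 2. Both medians lay close to the lowest detected signals of these arrays, 9.44 and 8.24. By mean oocyte signal, the members' median of 17.4 compares with 149 for all 21147 probes detected on both oocyte arrays. The median member ranked at the 9.14th percentile of those probes and the brightest at the 45.3rd, so every member lay in the lower part of the oocyte signal range. Only 5 members had a mean above 50 and 1 had a mean above 100, while 39 lay above 20.

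Z00000841-1 had the highest Cy3 signal, with 126 and 96.7 in the oocyte pools, 8.13 and 11.9 in the SN pools and 7.42 and 12.5 in the NSN pools. Its mean was 111 ± 20.7 (SD, n = 2) in oocyte, 10.0 ± 2.69 in SN and 9.96 ± 3.60 in NSN. Both oocyte pools stood well above the other 4, and the SN and NSN pools overlapped.

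Z00062346-1 measured 98.8 and 54.1 in oocyte, 4.53 and 3.53 in SN, and 3.33 and 4.73 in NSN. Z00035196-1 measured 88.7 and 39.2 in oocyte, 8.23 and 4.99 in SN, and 11.5 and 12.8 in NSN. In both, replicate 1 was the brighter oocyte pool; for Z00035196-1 both NSN pools lay above both SN pools, at signals below the detection limit of every array concerned.

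Z00031156-1 measured 75.8 and 43.9 in oocyte, 1.78 and 0.293 in SN, and 3.69 and 2.68 in NSN. Z00051957-1 measured 81.0 and 38.5 in oocyte, −1.61 and −3.11 in SN, and −0.0955 and 2.38 in NSN. Signals below 0 are spots dimmer than the background subtracted from them. The residual signals of these 2 probes ran from −3.11 to 3.69, each above the median of the negative control spots on its array, given below.

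Z00070572-1 measured 56.4 and 37.5 in oocyte, 8.68 and 8.43 in SN, and 9.91 and 9.07 in NSN. Z00028990-1 measured 57.2 and 34.2 in oocyte, −2.02 and 2.26 in SN, and −1.02 and 2.15 in NSN. Z00035377-1 measured 52.3 and 34.5 in oocyte, 3.69 and 4.01 in SN, and 8.75 and 1.75 in NSN. The 3 probes had like oocyte signals, while their residual signals ranged from −2.02 to 9.91.

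Z00059038-1 measured 63.5 and 22.6 in oocyte, 6.64 and 3.73 in SN, and 5.22 and 4.61 in NSN. Z00016072-1 measured 52.2 and 33.3 in oocyte, 10.6 and 1.44 in SN, and 7.68 and 12.2 in NSN. Replicate 1 was again the higher oocyte pool in both, and the residual of Z00016072-1 differed more between the pools of a group than between the groups.

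Z00035831-1 measured 55.2 and 28.2 in oocyte, 6.26 and 5.54 in SN, and 3.40 and −0.829 in NSN. Z00065725-1 measured 39.2 and 43.4 in oocyte, 8.72 and 8.87 in SN, and 5.24 and 8.23 in NSN, and was the only one of the 12 that was higher in oocyte replicate 2. Among the 12 probes, the lowest oocyte signal was 22.6 and the highest SN or NSN signal 12.8. The other 87 members had oocyte means from 9.03 to 40.1, with a median of 16.3.

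The order of the members was only partly shared by the 2 oocyte pools. Over the 99 members, log2 signals of the 2 arrays correlated with Pearson's r = 0.64 and signals with Spearman's rho = 0.57; members are not replicates and the choice of members cut the range of both arrays at the limit, so these values are a description. Replicate 1 was higher for 83 of 99 members, with a median ratio of 1.39 of replicate 1 over replicate 2, beside a ratio of 1.62 between the 75th percentiles of all probes. In 5 members the 2 oocyte pools differed more than 3-fold. The mean of Z00062346-1 was 76.5 ± 31.6 (SD, n = 2), that of Z00035196-1 63.9 ± 35.0 and that of Z00031156-1 59.8 ± 22.6. These SDs are of unscaled signals and include the difference in brightness between the 2 arrays, so they do not measure how firm the order is. Within each array Z00062346-1 was above both others, while Z00035196-1 and Z00031156-1 changed places.

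Residual Cy3 signal in the SN and NSN pools was low, but its medians lay above those of probes detected on no array and of negative control spots. The members had a median of 5.45 and 4.01 in SN replicates 1 and 2, and of 5.58 and 4.93 in NSN. Among the 9725 probes detected on no array the medians were 1.88 and 0.152 in SN and 0.511 and 0.681 in NSN, and 83 and 80 of the 99 members lay above them in SN, 86 and 88 in NSN. The 153 negative control spots had lower medians, −3.66 and −4.63 in SN and −3.63 and −4.54 in NSN, so a signal of 0 is not that of a blank spot. The residuals ranged from −3.70 to 10.6 and from −3.97 to 13.0 in SN, and from −3.45 to 14.0 and from −4.35 to 14.3 in NSN, the upper ends being set by the detection limit. In 15 members every SN and NSN signal was under 5, and in 33 at least 1 reached 10. By the software's less strict mark, for a positive and significant signal, only 7 of the 99 were detected in the oocyte pools alone. For most members, detection in oocyte only therefore holds for the well-above-background mark and not for that one.

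The detection limits of the arrays differed, and membership rests in part on this difference. The lowest signal marked as detected was 9.44 and 8.24 in oocyte, 10.6 and 14.2 in SN, and 14.3 and 14.4 in NSN. With both oocyte signals above 14.4, 37 members would have been detected at the limit of any array; 37 others had 1 oocyte signal above it and 25 had none. The SN and NSN arrays were also brighter as a whole, with 75th percentiles of Cy3 between 730 and 826 against 188 and 116 in oocyte, so the same raw signal is a smaller share of the total there. Relative to its 75th percentile, the limit was 0.0501 and 0.0711 in oocyte and between 0.0134 and 0.0196 in SN and NSN. With 1 common limit on the scaled signals, 1660 probes were detected in oocyte only, 69 of the 99 among them.

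Compared directly in raw intensity, 86 members had all 4 SN and NSN signals below the lower oocyte signal, and 13 had at least 1 SN or NSN signal at or above it. Over all probes, 5.75 percent had both oocyte signals above all others; the rule favours such probes, and nothing is read from the members' count. As the SN and NSN levels of a member were not detected, the fold of oocyte over them is given as an approximate bound. After loess within arrays and Aquantile scaling between them, this bound for Z00000841-1 in Cy3 was 7.16 over SN and 6.50 over NSN. The bounds were 4.94 and 4.18 for Z00035196-1, 4.14 and 3.54 for Z00035377-1, and 3.94 and 3.81 for Z00031156-1. Of the 99 members, 25 had a bound of at least 2-fold over both groups. The lowest bounds were 1.05 over SN and 1.01 over NSN. Both scaling steps also use Cy5, so a bound does not follow raw Cy3 alone. Z00034994-1, with raw Cy3 of 9.85 and 8.69 in oocyte and 8.54 and 2.69 in SN, had a bound of 2.01 over SN. Z00009958-1, with 20.5 and 13.5 in oocyte and −3.70 and −3.97 in SN, had one of 1.56. A bound sets the mean oocyte level against the higher of the probe's own level and the lowest detected level on each array, and it is compressed by the offset of 50 added to every spot. The lowest detected level is that of a single probe, so the bound is not a strict lower limit. First percentiles of the detected probes were log2 6.21 and 6.36 in SN and 6.34 and 6.31 in NSN. The oocyte level of Z10000002-1, which had the lowest bounds, was log2 6.18 and lay below all of these. Slide, pool size and choice of scan differed with the group, and these folds cannot be told apart from those differences.

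By the gap in raw mean signal between oocyte and the other 4 pools, Z00000841-1 (101), Z00062346-1 (72.5) and Z00051957-1 (60.4) were first. The smallest gaps were 1.35 for Z00036604-1 and up to 3.11 for Z00010821-1 and Z00024351-1. Z00036604-1 measured 10.0 and 10.6 in oocyte, 6.59 and 5.63 in SN, and 10.2 and 13.4 in NSN. Its NSN signals were as high as its oocyte signals, and it is a member because the limit on the NSN arrays lay higher.

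At the edge of the rule, the 4 members nearest to an oocyte limit were Z00052936-1, with 9.46 and 8.86 in oocyte, Z00066030-1, with 23.4 and 8.28, Z00030160-1, with 23.9 and 8.33, and Z00023695-1, with 9.71 and 8.35. Their lower signal was between 1.00 and 1.01 times the limit of its array. Just outside, 151 probes were detected on both oocyte arrays and on 1 of the other 4, which was SN replicate 1 for 78 of them. Z00073933-1 was the nearest: it measured 160 and 71.3 in oocyte, 5.60 and 9.70 in SN, and 14.3 and 10.8 in NSN, and it would have headed the members by mean oocyte signal had NSN replicate 1 read marginally lower. Z00066499-1 measured 48.6 and 8.64 in oocyte against 14.3 in NSN replicate 1. Z00025913-1 had 25.5 and 15.3 against 14.3 in SN replicate 2, and Z00027336-1 had 25.3 and 19.9 against 10.8 in SN replicate 1. The edge thus passed through probes with clear oocyte signal, such as Z00073933-1, and through probes close to an oocyte limit, such as Z00052936-1 and Z00066499-1.

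One member, Z10000002-1, was spotted 5 times, and no single spot of it was detected on both oocyte arrays. Spot 3 measured 17.7 in oocyte replicate 1 and 0.104 in replicate 2, and spot 2 measured −0.110 and 11.2. The other 3 spots lay between −2.13 and 4.11 on these arrays. Cy5 was raised on the same spots, at 32.3 on spot 3 in replicate 1 and 24.1 on spot 2 in replicate 2, while every Cy5 value of this probe in SN and NSN was at or below 2.28. Its membership rests on different spots of the 2 arrays; without it there are 98 members.

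The members fell into those with and those without signal in the Cy5 reference. Cy5 was detected on all 6 arrays for 49 of the 99 members, on none for 34 and on 1 to 5 arrays for 16. As shares, 49.5 percent of the members and 65.4 percent of all probes were detected in Cy5 on all 6 arrays, against 93.5 percent of the probes detected in Cy3 on both oocyte arrays and 17.4 percent of those detected in Cy3 nowhere. In the opposite set of 2679 probes the share was 64.6 percent. The share of the members thus lay between that of the probes with oocyte signal and that of the probes detected in Cy3 nowhere. Array by array, 52.5 to 60.6 percent of the members and 68.2 to 71.4 percent of all probes were detected in Cy5.

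On the arrays of oocyte replicates 1 and 2 the members' median Cy5 intensity was 31.7 and 28.5, on those of SN it was 17.4 and 22.5, and on those of NSN 21.1 and 21.3. The medians of all probes were 144 and 119, 96.5 and 112, and 112 and 109 in the same order. Reference signal of the members was therefore low on every array and, before scaling, highest on the oocyte arrays. Its order bore little relation to that of their Cy3 signal: across the 99 members, mean oocyte Cy3 and mean Cy5 had Spearman's rho = 0.085, as a description, and the 49 members with Cy5 on all arrays had a median oocyte Cy3 of 17.0 against 18.0 for the 34 with none. Of the 49, 45 had more Cy5 than Cy3 intensity on both oocyte arrays.

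The highest mean Cy5 belonged to Z00040136-1, which measured 724 and 581 with the oocyte pools, 498 and 569 with SN, and 549 and 549 with NSN, beside a Cy3 of 21.9 and 10.9 in oocyte. Z00035196-1 followed with 525 and 450, 373 and 433, and 421 and 403, and Z00078020-1 with 546 and 450, 356 and 428, and 412 and 404. All 3 were bright in the reference on every array, and the array of oocyte replicate 1 was the highest each time. Z00000841-1, the brightest member in Cy3, had a Cy5 of 362 ± 24.3 (SD over 6 arrays).

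The lowest Cy5 among the members detected on all 6 arrays was that of Z00009958-1, at 24.4 and 28.9, 18.7 and 20.6, and 26.9 and 21.0. Z00044251-1 had a mean of 25.8 ± 6.71 (SD over 6 arrays) and Z00031369-1 one of 26.3 ± 8.14. In Cy3, Z00009958-1 measured 20.5 and 13.5 in oocyte and from −3.97 to −1.67 in the other pools, the lowest residual of these 3 probes. Among the 12 brightest members, Cy5 was detected on all arrays for 8 and on none for 2, Z00062346-1 and Z00051957-1. The Cy5 mean of Z00051957-1 was −0.025 ± 6.77 (SD over 6 arrays), so its spot carried signal in the oocyte channel alone.

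The reference RNA was the same on all arrays. Detection in Cy5 was no part of the rule for members, but Cy5 signal counted toward the choice between the 2 scans of each SN and NSN array, and with the other scan 86 of the 99 were still members. For each probe, Cy5 on the 4 SN and NSN arrays was set against Cy5 on the oocyte arrays, after normexp correction and scaling to the 75th percentile, on the log2 scale. Of the 57 members detected in Cy5 on at least 2 arrays, limma called 4 at an adjusted p under 0.05, where it called 26.5 percent of the 29937 probes in the fit. The members' share was under the background. At an unadjusted p under 0.05 there were 9 members, against 40.7 percent of all probes. In 9 members all SN and NSN arrays were higher than both oocyte arrays, and in 8 all were lower, beside 27 and 22.6 percent of all probes in the fit. The members' median difference was 0.01, beside 0.03 for all probes in the fit. Its sign changed with the processing, to −0.07 with the processed signal, −0.04 with an offset of 16, −0.03 with quantile normalization and −0.05 without oocyte replicate 1. The median over all probes in the fit moved as well, to −0.147, −0.004, 0.011 and −0.001 in the same order.

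Of the 4 called, Z00016072-1 was lower on the SN and NSN arrays by a log2 difference of −0.21 (95% interval −0.34 to −0.09, limma adjusted p = 0.0228). Z00035297-1 was lower by −0.24 (limma adjusted p = 0.0336), with Cy5 intensities of 399 and 378 beside oocyte RNA, 247 and 284 beside SN, and 270 and 260 beside NSN. Z00023695-1 was lower by −0.23 (limma adjusted p = 0.0357), and Z00015633-1 was higher by 0.15 (limma adjusted p = 0.0470). On the higher side Z00023540-1 came next at 0.18 and missed the threshold (limma adjusted p = 0.0714). The oocyte arrays lay on slides 1 and 2 and all SN and NSN arrays on slide 3, so slide and group cannot be told apart. With slide as a random block (correlation 0.51) limma called none of the 57, and its calls over all probes fell from 7945 to 2243. With the other scan it called 1 member and 3324 probes. With 1 array left out, no member was called without NSN replicate 1, NSN replicate 2 or SN replicate 2, where 5055, 5426 and 4894 probes were called. Without SN replicate 1 it called 1 member and 6308 probes, and without oocyte replicate 1 or 2 it called 10 members each time, beside 8136 and 10478 probes.

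In 9 members Cy5 was detected on an oocyte array and on no SN or NSN array, and in none the reverse; over all probes these shares were 1.63 and 3.93 percent. The 9 were singled out after their values were seen. Z00056610-1 had a Cy5 of 13.7 and 111 on the oocyte arrays against 7.22 to 10.4 on the others, and its Cy3 was 16.8 and 35.8 in oocyte. Both dyes were higher on the array of replicate 2. Z00030160-1 had a Cy5 of 74.7 and 18.7 against −7.21 to 3.43, with Cy3 of 23.9 and 8.33, and Z00065725-1 had a Cy5 of 67.7 and 7.43 against 0.791 to 4.14, with Cy3 of 39.2 and 43.4. The others were Z00005336-1, Z00053377-1, Z00068336-1, Z00028416-1, Z00036604-1 and Z10000002-1. In 7 of the 9 the oocyte array with the higher Cy5 was also the one with the higher Cy3, but not in Z00065725-1 or Z00028416-1. The part of the Cy5 signal in the detection of these members was not tested.

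The residual Cy3 signals of the SN and NSN pools were cut off by the rule itself, and not at the same height: a member had to lie below 10.6 and 14.2 in SN but below 14.3 and 14.4 in NSN, which leaves more room upward in NSN. Values of NSN minus SN are therefore a description of capped signals, and nothing is read from the members' counts. limma, fitted on the 4 arrays of slide 3 over all 42006 probes, called 0 of the 99 members at an adjusted p under 0.05 and 53 probes in all, 0.126 percent, each of them lower in NSN. At an unadjusted p under 0.05 there was 1 member, against 9.96 percent of all probes. The count over all probes was unstable: it was 917 without SN replicate 1, 1392 without SN replicate 2, and 0 without NSN replicate 1, without NSN replicate 2 or with a replicate block. The members' count was 0 in each of the 12 other settings run, several of which called no probe at all.

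The log2 difference of NSN minus SN was above 0 for all 99 members, from 0.05 to 0.41, with a median of 0.18. Outside the members the medians were above 0 as well: the median was 0.14 over all 42006 probes and 0.18 over the 9725 probes detected on no array. In raw intensity the members split almost evenly, with 53 higher and 46 lower in NSN by their means and a median difference of 0.296 units. Of the probes detected on no array, 45.0 percent were higher in NSN in raw intensity, with a median difference of −0.319 units. The sign that all members share on the log2 scale is thus not seen in the unscaled signals. Z00049849-1 had the largest difference, 0.41 (SE 0.17), from −0.778 and 3.36 in SN to 7.14 and 8.75 in NSN, with 35.4 and 24.0 in oocyte. Z00069058-1 differed by 0.36 (SE 0.14), from −1.57 and −3.19 in SN to 6.66 and 5.96 in NSN, with 12.8 and 56.6 in oocyte. Both lay below the limit in all 4 pools.

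As log2 ratios of Cy3 over Cy5 after loess, the members' medians were 0.39 and 0.31 on the oocyte arrays, −0.25 and −0.29 in SN, and −0.29 and −0.27 in NSN. The median difference was −0.83 for SN minus oocyte and −0.80 for NSN minus oocyte, with single members between −3.47 and −0.05 and between −3.26 and −0.03. Both comparisons share the oocyte arrays, and the rule used the same contrast. The extreme value in each was that of Z00000841-1, and the value nearest to 0 that of the repeated probe Z10000002-1. The size of the median depended on the normalization. It was −3.72 and −3.64 with the deposited log ratio, against −0.69 and −0.66 with median centring.

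The authors' deposited table of processed log10 values holds 57 of the 99 members. Of the 57, 45 lay above 2 on both oocyte arrays in the authors' deposited table, and none did on any SN or NSN array. The floor that the study's design text states for its own analysis is 2. These values follow the same Cy3 signal by which the members were chosen, so the counts are a description and support nothing. In the authors' deposited table the members' medians were 2.35 and 2.30 in oocyte, 1.30 and 1.24 in SN, and 1.25 and 1.23 in NSN. The members in the table and the 42 outside it had like oocyte Cy3, with medians of 17.4 and 17.3. Of the 12 brightest members 8 were in the table.

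By sequence, the members were slightly poorer in G and C than the array as a whole. The median was 41.7 percent, with the middle range from 36.7 to 45.0 percent, against 43.3 percent and a middle range from 38.3 to 50.0 percent for all probes; the middle range runs from the first to the third quartile. The opposite set of 2679 probes had a median of 45.0 percent. The hexamers AATAAA or ATTAAA stood in 10 members as written, 10.1 percent, against 9.90 percent of all probes. On the other strand, as TTTATT or TTTAAT, they stood in 12 members, 12.1 percent, against 5.53 percent of all probes and 5.51 percent of the probes detected on both oocyte arrays. The members so marked were no brighter than the rest, with a median oocyte Cy3 of 15.6 against 17.4 for all members. The match is a description of these letters and names no strand of any transcript.

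No member shared 20 or more bases in a row with another member, on either strand. For 2 members such a stretch was shared with a probe outside the set, and these pairs are shown because the partner was detected on all 6 arrays. Capitals mark the shared stretch.
Z00036588-1: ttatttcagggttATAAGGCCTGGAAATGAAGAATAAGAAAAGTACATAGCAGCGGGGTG
Z00070379-1: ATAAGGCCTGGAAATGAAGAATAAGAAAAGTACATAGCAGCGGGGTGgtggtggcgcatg
Z00063670-1: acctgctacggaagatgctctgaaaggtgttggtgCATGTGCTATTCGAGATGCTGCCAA
Z00070665-1: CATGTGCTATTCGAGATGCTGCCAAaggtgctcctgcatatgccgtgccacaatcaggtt

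Z00036588-1 and Z00070379-1 share 47 of their 60 bases. The member measured 11.9 and 9.96 in oocyte, 2.15 and 8.20 in SN, and 7.45 and 4.18 in NSN, while its partner measured 41.0 and 28.9, 62.4 and 52.0, and 37.8 and 41.9. Z00063670-1 and Z00070665-1 share 25 bases. The member measured 12.1 and 11.4 in oocyte, 3.40 and −0.826 in SN, and 1.08 and 9.02 in NSN, and its partner measured 35.1 and 27.5, 71.1 and 41.0, and 36.6 and 48.3. In both pairs the partner was brighter on every array. In raw intensity its means in SN and NSN were not below its mean in oocyte, unlike those of the member beside it. These signals are not scaled, and the SN and NSN arrays were brighter as a whole. Their 75th percentiles of Cy3 lay between 730 and 826 against 188 and 116 in oocyte, so nothing is read from this contrast. Both members also had Cy5 on all 6 arrays, with means of 50.1 ± 13.4 and 178 ± 23.2 (SD over 6 arrays).

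The members lay in all parts of the array, though not in equal number. In 4 equal blocks of the 532 rows there were 32, 23, 14 and 30 members, where each block holds 24.7 to 25.4 percent of all probes. In 8 members another member lay within 2 rows and 2 columns. When the median pixel of the spot replaced the mean on the oocyte arrays, 91 of the 99 stayed above the limits there. In the other scan of the SN and NSN arrays, 13 members were detected on at least 1 of the 4 arrays and 86 on none.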

How the data were processed

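Intensity values came from the deposited scanner files, made with Agilent Feature Extraction 9.5.1.1 per the file headers, which hold for each spot the mean signal and local background in Cy3 and Cy5, the background-subtracted signal, and a processed signal that the software dye-normalized. The deposited log ratios are log10 values, with Cy5 as numerator per the file headers; their sign was turned. The authors' table, whose log10 scale was found by setting it against the processed Cy3 signal (r between 0.9938 and 0.9977), served as an alternative; the centring of its columns stays unknown. Its column medians were 2.477 and 2.439 in oocyte, 2.574 and 2.563 in SN, and 2.546 and 2.567 in NSN. Of the 2 scan files of each SN and NSN array, the one with the larger total signal was used; oocyte arrays have 1 scan each.

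Members and lists were chosen with earlier results of these data known. Levels are background-subtracted intensities, the highest spot for a repeated probe. For tests, signals were corrected with normexp (offset 50, limma 3.58.1, R 4.3.3), scaled per channel to the 75th percentile or turned into loess ratios, and spots of a probe were averaged, leaving out non-uniform ones. Two-sided limma tests were adjusted by Benjamini-Hochberg over all probes in the fit and tested on simulated data. A probe entered the Cy5 fit if detected in Cy5 on at least 2 arrays. Named probes follow one rule: the 12 brightest members, the 4 nearest to the limit on each side, the 3 extreme ones by Cy5 and by gap, up to 2 of smallest p per direction, and those sharing sequence. The number of arrays limits the precision. Probes are not named by gene in the sources used here, so gene lists, markers and genome positions were not used. No spot of a probe was saturated in Cy3.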

Additional observations from a re-analysis of the deposited data

How the results depend on the processing

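The number of members depended on the limit and on single arrays. It was 37 when both oocyte signals had to pass the highest SN or NSN limit, and 320 from the authors' deposited table with its floor, 45 of the 99 among them. Limits chosen after seeing the data gave 53 with 1 common limit and 1660 with 1 common limit after scaling. Leaving out 1 array gave 117 to 478 probes, namely 225 without oocyte replicate 1, 478 without oocyte replicate 2 and 177 without SN replicate 1; with fewer arrays the rule is easier to meet. The other scan gave 99 probes, 86 of them shared. The software's mark for a positive and significant signal, in place of that for well above background, gave 124, and only 7 of the 99 were among them.

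The median log2 ratio difference kept its sign, but the rule chose members by the same contrast, so the sign supports nothing. For SN and NSN minus oocyte in turn it was −4.03 and −4.08 from the processed Cy3 signal by itself, −3.72 and −3.64 from the log ratio as deposited, −0.69 and −0.66 with median centring, −1.48 and −1.28 with an offset of 16, and −1.06 in both with the authors' table. With 1 array left out it ran from −0.86 to −0.72 and from −0.83 to −0.70.

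For Cy5, the members' median turned to −0.066 with the processed signal and to −0.052 without oocyte replicate 1, and was 0.13 with the other scan. The median over all probes in the fit was −0.147, −0.001 and 0.074 in these settings. With 1 array left out the members' median ran from −0.052 to 0.072 and that of all probes from −0.001 to 0.054. The members called fell from 4 to 0 with slide as a random block and to 1 with the other scan, and ranged from 0 to 10 with 1 array left out, while the calls over all probes went from 7945 to 2243 and 3324 and ranged from 4894 to 10478. The cause of these shifts was not tested.

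Replicate numbers were treated as names and not as pairs: same-numbered deviations correlated with r from 0.09 to 0.25 in Cy3 and from −0.15 to 0.11 in Cy5. With a replicate block, 0 members and 0 of all probes were called for NSN minus SN, and 3 members and 6329 probes for Cy5, with an unchanged Cy5 median of 0.01.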
